A study of Mus musculus with 3 samples.

Results

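Immediate early genes are transcribed within minutes of a stimulus, with no need for new protein, and several phosphatases of the mitogen-activated protein kinases are switched on by the same signal. The genes described here are 10 from these gene families: Fos, Fosb, Jun, Junb, Jund, Egr1, Atf3, Ier2, Dusp1 and Dusp5. They were chosen by name, and how fast each responds was not measured. All 10 were among the 17931 genes of the deposited count matrix. They were measured by droplet single-cell RNA sequencing in the corneal epithelium of untreated C57BL/6J mice in homeostasis. Each transcript is read at its 3′ end and counted once by its barcode, as 1 unique molecular identifier (UMI). The 3 libraries formed 1 group, and each pooled animals. For library 1 the pool was 4 corneas from 2 males of 20 weeks, for library 2 it was 4 corneas from 2 females of 11 weeks, and for library 3 it was 7 corneas from 7 males of 10 weeks. For all 3, the epithelium was lifted with an enzyme and then taken apart with trypsin, both steps during which these genes can be induced, and no library made without these steps was analysed here. The part of dissociation in any level below was not tested.

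Cells carried 8 class labels of the authors. These were read as limbal (LSC), basal, TAC1 and TAC2 (taken as transit-amplifying cells), wing, superficial (Squam), conjunctival (Conj) and immune. Of the markers set beside each label, all 5 for dividing cells were highest in TAC1 or TAC2, all 5 superficial, all 5 conjunctival and all 7 measured immune markers were highest in their own class, and so were 3 of 4 wing markers. The limbal label was less clear, with 3 of 5 markers highest there and Krt15 highest in conjunctival cells. The basal label was the least clear, with 2 of 5 highest there. The 38111 cells comprised 37997 epithelial cells and 114 immune cells, and the libraries held 9488, 11273 and 17350 cells with median depths of 16159.5, 13232 and 8334 UMIs. Pairs of libraries shared between 32 and 57 cell barcodes. Markers of immune cells summed to at most 8.46 CPM (UMIs scaled to 1000000 per class and library) in any epithelial class of any library, against 22773 CPM or more in the immune class.

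Fos, Fosb, Jun, Junb and Jund encode subunits of the AP-1 transcription factor, in which a Fos protein pairs with a Jun protein, and Atf3 encodes a related protein that can join or repress such dimers. Egr1 encodes a zinc finger transcription factor, and Ier2 a nuclear protein of the same early response. Signals through the kinase ERK reach the promoters of many of these genes through serum response factor, which binds the CArG box, and through factors that bind the cyclic AMP response element. Dusp1 and Dusp5 encode phosphatases in the nucleus that end the signal: DUSP5 acts on ERK, and DUSP1 mainly on the related kinases p38 and JNK and also on ERK. In the corneal epithelium, cells are born in the basal layer, move up as wing cells and are shed from the surface as superficial squamous cells, and the stem cells lie at the limbus.

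Stretches before the transcription starts of 4 genes, the Fos pair and the phosphatase pair, are shown because response elements of this family lie there and because the Fos pair is highest on average in basal cells and the phosphatase pair in superficial cells. Each runs from 250 to 51 bases before the RefSeq start, 5′ to 3′ on the strand of the gene (build GRCm38.p6). Capitals mark matches to the CArG box, to the full cyclic AMP response element TGACGTCA or to its TGACG core, searched on both strands, where the full element contains the core.
Fos, chr12:85473640-85473839, plus strand: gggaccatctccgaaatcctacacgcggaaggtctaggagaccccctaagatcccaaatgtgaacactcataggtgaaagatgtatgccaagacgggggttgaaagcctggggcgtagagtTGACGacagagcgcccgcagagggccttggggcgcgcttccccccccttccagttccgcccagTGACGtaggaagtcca
Fosb, chr7:19310096-19310295, minus strand: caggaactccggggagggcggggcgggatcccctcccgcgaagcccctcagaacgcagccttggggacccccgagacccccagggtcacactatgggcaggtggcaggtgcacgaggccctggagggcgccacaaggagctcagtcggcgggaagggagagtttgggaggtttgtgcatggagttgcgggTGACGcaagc
Dusp1, chr17:26508523-26508722, minus strand: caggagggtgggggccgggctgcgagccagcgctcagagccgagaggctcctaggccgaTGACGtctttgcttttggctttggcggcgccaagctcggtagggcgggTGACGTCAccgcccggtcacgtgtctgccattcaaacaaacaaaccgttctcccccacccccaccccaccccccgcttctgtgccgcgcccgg
Dusp5, chr19:53528895-53529094, plus strand: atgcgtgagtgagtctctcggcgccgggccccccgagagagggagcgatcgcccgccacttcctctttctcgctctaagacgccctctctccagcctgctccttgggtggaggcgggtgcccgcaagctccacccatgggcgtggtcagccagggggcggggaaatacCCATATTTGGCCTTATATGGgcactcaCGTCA

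Dusp5 held 2 CArG boxes side by side, from 82 to 73 and from 72 to 63 bases before its start, and 1.16% of 32851 RefSeq windows of this length held at least 1. Dusp1 held the full TGACGTCA from 143 to 136 bases before its start, which 0.828% of the windows held. The TGACG core, in either orientation, was in the windows of Fos, Fosb, Junb, Dusp1 and Dusp5, 5 of the 8 genes searched, against 12.7% of all windows. The AP-1 motif TGANTCA, in 5.57% of windows, and the EGR motif GCGNGGGCG, in 3.04%, were in 0 of the 8. These are matches of letters in a short stretch, and a motif outside it would not be seen. Egr1 and Ier2 were not searched.

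The Fos genes had their highest means in the basal layer. Fos stood at 270.0, 279 and 154 CPM in basal cells of libraries 1, 2 and 3. It stood at 135, 136 and 131 CPM in wing cells and at 98.8, 76.5 and 98.99 CPM in superficial cells, an order of these 2 classes that turns round with the scaling used for the tests below. The lowest levels of Fos were those of conjunctival cells, at 41.3, 38.4 and 40.5 CPM, and limbal cells, at 40.1, 32.1 and 42.7 CPM. From basal through TAC1 and TAC2 to wing cells the ranges of neighbouring classes overlapped, and so did those of the conjunctival and limbal classes. Wing, superficial and conjunctival cells did not overlap with each other. Fosb had the same classes at the top, with 39.8, 32.3 and 9.17 CPM in basal cells, and 5.90, 6.79 and 2.31 CPM in limbal cells at the bottom. Basal Fosb was 4.34 and 3.52 times as high in libraries 1 and 2 as in library 3, and basal Fos 1.75 and 1.80 times, whereas wing Fos was 1.04 times as high in both. Library 3 therefore stood apart for both genes in basal, TAC1 and TAC2 cells. Fosb, but not Fos, was also 2.56 and 2.94 times as high in limbal cells of libraries 1 and 2 as in library 3, and 1.52 and 1.48 times in wing cells. Library 3 also differed from libraries 1 and 2 in depth, in age and in the number of mice pooled, and from library 2 in sex, which cannot be told apart.

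The 3 Jun genes did not share a pattern. Jun followed Fos at the top, with 362, 449 and 342 CPM in basal cells, above the range of every other epithelial class, and was lowest in conjunctival cells at 128, 140.2 and 93.8 CPM. Junb was highest in superficial cells, at 725, 525 and 659 CPM, with 383, 405 and 402 CPM in basal cells and 210.0, 198 and 291 CPM in limbal cells. Jund was highest in superficial cells as well, at 679, 592 and 679 CPM, and the means of its other epithelial classes lay between 229 and 333 CPM. For both Junb and Jund the superficial range lay above those of all other epithelial classes, while most neighbours further down the order overlapped. Jun overlaps the antisense gene Junos, Junb overlaps Prdx2 and Jund overlaps Gm11175, all on the opposite strand and all in the matrix. The sources used here do not give how strand was used in counting, so reads of such partners cannot be told apart.

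Scaled to class totals, Ier2 and Egr1 were highest in basal cells, a place at the top that both lost under the other scaling described below. Ier2 had 229.5, 251 and 207 CPM there, above every other epithelial class, then a plateau of overlapping TAC1, TAC2 and wing cells with means of 176 to 177 CPM, and then overlapping conjunctival, superficial and limbal cells with means of 109 to 117 CPM. Egr1 had 57.7, 64.7 and 43.3 CPM in basal cells, and every pair of neighbours in its order overlapped. Superficial Egr1 ranged from 9.74 CPM in library 2 to 33.4 CPM in library 3, the widest range of any epithelial class for this gene. Atf3 was scarce, with means of 0.881 to 1.31 CPM in TAC1, wing, basal and TAC2 cells. It stood at 4.22, 11.5 and 4.61 CPM in limbal cells, 2.47, 6.01 and 1.61 CPM in conjunctival cells and 1.94, 2.03 and 9.81 CPM in superficial cells. Those superficial values came from few cells, as described further on.

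The phosphatase genes had the steepest patterns of the 10. Dusp5 stood at 469.9, 359 and 308 CPM in superficial cells and at 1.13, 1.56 and 0.786 CPM in basal cells, which held 30, 39 and 21 UMIs of it in all. The highest class mean of Dusp5 was 327 times the lowest, against 15.4 for Dusp1 and 2.10 to 7.68 for the other 8 genes. Between these ends Dusp5 went down in steps that did not overlap, through conjunctival cells (26.5, 23.6 and 20.95 CPM), wing cells (16.9, 12.6 and 12.2 CPM) and limbal cells (9.70, 6.55 and 4.04 CPM). TAC1, TAC2 and basal cells overlapped at the bottom. Dusp1 was highest in superficial cells at 508, 215 and 215 CPM, followed by limbal cells at 83.5, 59.7 and 27.7 CPM and conjunctival cells at 71.4, 41.9 and 23.7 CPM. Library 1 had the highest Dusp1 in each of those 3 classes, and superficial cells still lay above all other epithelial classes in every library. Wing, TAC1, TAC2 and basal Dusp1 overlapped, with means of 20.2 to 23.6 CPM. The annotated extent of Dusp1, chr17:26505590-26562128, overlaps Ergic1 on the opposite strand by 640 bases, from 26561489 on. The RefSeq start used for its promoter stretch lies below 26508523, outside that overlap.

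**Figure D1:**
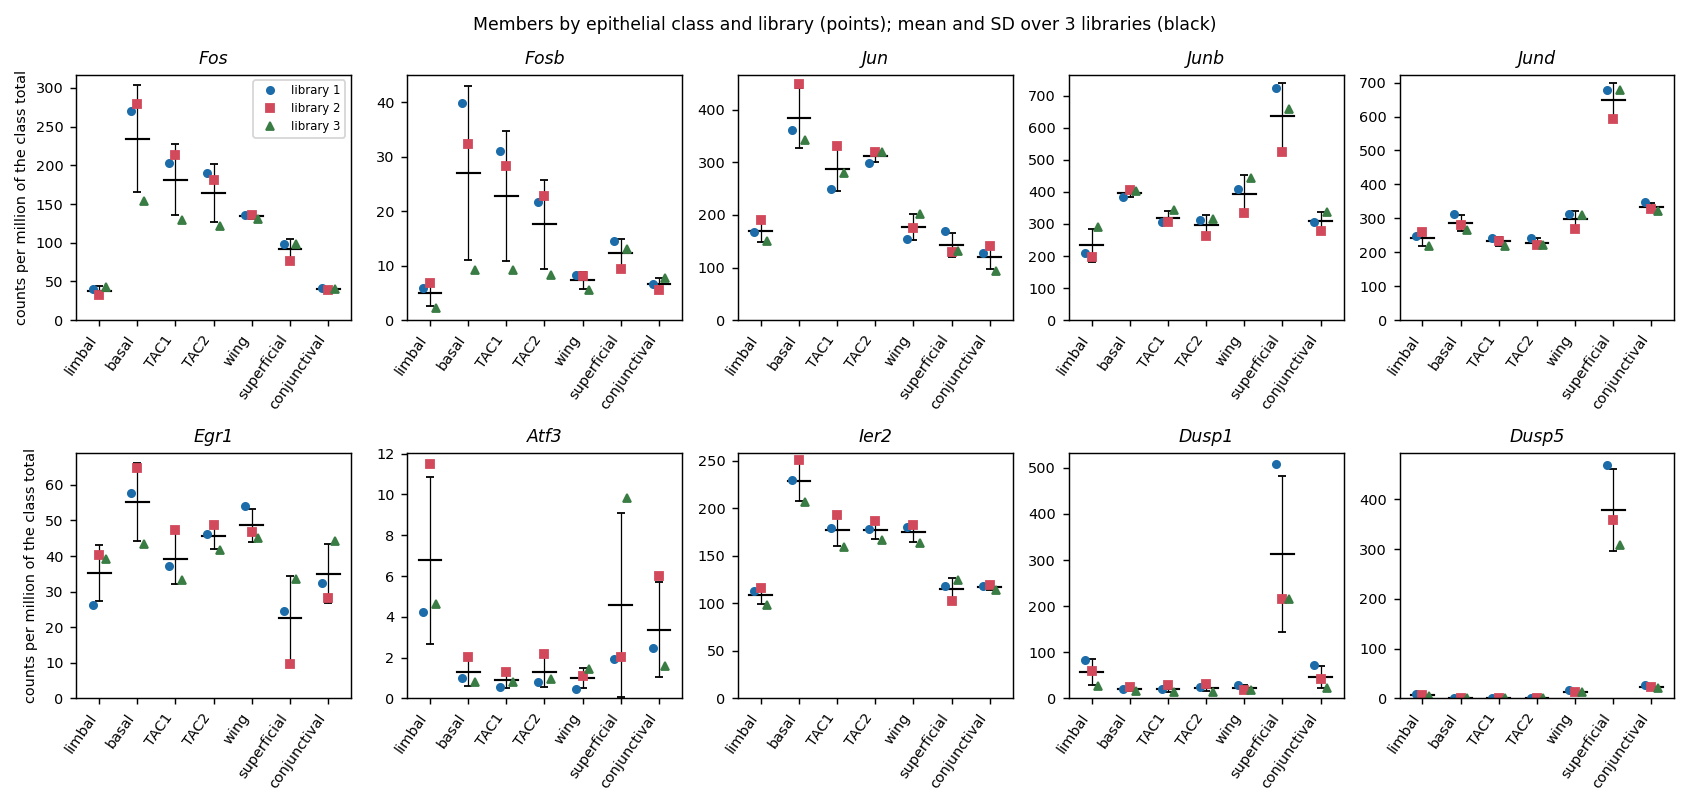
Each panel plots CPM of the class total for 1 gene in the 7 epithelial classes, with a point for each library and the mean and SD over 3 libraries in black, on a linear axis from 0. Fos, Fosb, Jun, Egr1 and Ier2 have their highest mean in basal cells, Junb, Jund, Dusp1 and Dusp5 in superficial cells and Atf3 in limbal cells.

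Scaled to class totals, the 114 immune cells carried more of 8 of the genes than any epithelial class did on average. Junb and Dusp1 left that count under the other scaling described below. Their Fos stood at 791, 633 and 677 CPM, their Jun at 1197, 1113 and 1269.7 CPM, and their Egr1 at 385, 235 and 310.4 CPM. Dusp5 had 3, 3 and 0 UMIs in immune cells, and in library 3 the count of 0 allows up to 84.6 CPM. The exceptions to the order were Jund, at 520.4, 388 and 310.4 CPM, and Dusp5, both below the superficial mean. Immune cells were shallow, with median depths of 1351 to 2424 UMIs, and carried 2455 to 8509 CPM of the corneal keratin Krt12, which is foreign to them. They entered no comparison.

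Superficial cells spend more of their transcripts on few genes, and that bears on every comparison with them. The 50 most abundant genes took 51.3% ± 0.55 (SD, n = 3) of their UMIs, against 35.0% ± 0.0912 in basal cells. Scaling by the trimmed mean of M values (TMM), used for the fold changes below, raised the median log2 fold change of all genes by 1.15 in superficial against basal cells and by 0.98 in superficial against wing cells over scaling by class totals alone. With class totals, 22.5% and 16.8% of the called genes were higher in superficial cells, against 47.8% and 47.5% with TMM. Of all genes tested with class totals, 2586 of 12500 were higher and 8891 lower against basal cells, and 1957 and 9663 of 12818 against wing cells. The share of calls higher moved from 48.3% to 34.1% in conjunctival against basal cells, from 50.1% to 38.4% in wing against basal cells, from 53.2% to 67.7% in limbal against basal cells and from 51.2% to 63.6% in TAC2 against basal cells. With TMM over all sums the highest epithelial class became the wing class for Egr1 and the superficial class for Atf3 and Ier2. It was the same for the other 7 genes, but Fosb was then level in basal and superficial cells, at 24.3 ± 14.1 and 24.2 ± 4.65 CPM. With that scaling immune Junb and Dusp1, at means of 518 and 265 CPM, lay below superficial cells, at 1258 and 615 CPM.

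Classes were compared by the edgeR quasi-likelihood test on sums of UMIs per class and library, with the library as a block and p adjusted over all genes tested. Each fold change is a log2 difference followed by its standard error (SE). The comparisons with basal cells share the same 3 basal sums.

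Limbal cells differed from basal cells in all 10 genes. Lower in limbal cells were 7, where 18.8% of all genes tested were, and higher were 3, where 21.4% of all genes were. Besides the Fos genes, these included Jun, which was lower by -1.29 ± 0.08 (adjusted p = 5.12e-20), Ier2 by -1.19 ± 0.08 (adjusted p = 7.03e-18), Egr1 by -0.79 ± 0.13 (adjusted p = 8.19e-06) and Jund by -0.36 ± 0.08 (adjusted p = 9.99e-05), each in 3 of 3 libraries. In the other direction, Dusp5 was higher by 2.39 ± 0.34 (adjusted p = 5.91e-08), Atf3 by 2.27 ± 0.33 (adjusted p = 9.48e-08) and Dusp1 by 1.35 ± 0.19 (adjusted p = 0.000415), also in 3 of 3. Limbal counts of Dusp5 were low, with 23, 28 and 7 UMIs in 6, 20 and 6 cells of libraries 1, 2 and 3. Those of Atf3 were 10, 49 and 8 UMIs in 7, 28 and 7 cells. Markers of conjunctival cells were also higher in limbal than in basal cells, for 5 of 5 in every library. They summed to 1847 to 2523 CPM in limbal cells, 28.4 to 72.5 CPM in basal cells and 12221 to 14835 CPM in conjunctival cells, with none at 0. These markers summed to 2233 to 2560 CPM in wing cells. Markers of stromal, vascular, pigment, Schwann and goblet cells together summed to 44.2 to 68.1 CPM in limbal and 7.30 to 9.35 CPM in basal cells. Their part in the limbal differences was not tested. Of the 10 calls, that of Egr1 was lost in a single fit over 7 classes (-0.72, adjusted p = 0.196) and that of Fosb without the library block (-2.40, adjusted p = 0.0983).

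In TAC1 and in TAC2 cells Fos, Fosb, Jun, Junb, Jund, Egr1 and Ier2 were modestly lower than in basal cells. In TAC1, these 7 were lower and 0 higher, where 20.5% and 21.1% of all genes were, with Egr1 at -0.49 ± 0.05 (adjusted p = 8.93e-16), Jun at -0.42 ± 0.03 (adjusted p = 1.5e-18), Ier2 at -0.36 ± 0.03 and Fos at -0.35 ± 0.03. In TAC2, 7 were lower and 0 higher, where 23.7% and 24.9% of all genes were, with Fosb at -0.65 ± 0.09 (adjusted p = 6.11e-06), Fos at -0.57 ± 0.05 (adjusted p = 2.23e-09), Junb at -0.49 ± 0.05 and Ier2 at -0.44 ± 0.04. Atf3, Dusp1 and Dusp5 passed the test in neither. These differences were small beside the spread between libraries. Without the library block, 2 of the TAC1 calls and 4 of the TAC2 calls held, and a fit over 7 classes kept 3 and 4. Calls over all genes also fell without the block, from 5113 to 1298 of 12297 in TAC1 and from 5927 to 2630 of 12212 in TAC2. The fit over 7 classes called 3215 and 5346 of 13472 genes. Basal Fos of library 3, at 154 CPM, lay below TAC1 Fos of libraries 1 and 2, at 203 and 213 CPM. Fosb in TAC1 was -0.24 ± 0.06 in the fit and -0.13 without library 1 (adjusted p = 0.293).

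Wing cells had less Jun than basal cells and more Dusp5. Jun was lower by -0.93 ± 0.10 (adjusted p = 0.000185), Fosb by -1.59 ± 0.38 (adjusted p = 0.0426) and Ier2 by -0.20 ± 0.04 (adjusted p = 0.00122). Dusp5 was higher by 3.77 ± 0.14 (adjusted p = 2.17e-10) and Jund by 0.23 ± 0.05 (adjusted p = 0.00142). That made 3 genes lower and 2 higher, where 38.7% and 38.8% of all genes were, so the count itself is at the background. Jund was at 0.05 with class totals (adjusted p = 0.407). The Fosb call was lost without library 2 (-1.46, adjusted p = 0.2). Fos, at -0.58 ± 0.20 (adjusted p = 0.0801), passed without library 1 (-0.46) and without library 3 (-0.81), and its difference was -0.80, -0.83 and -0.10 in libraries 1, 2 and 3.

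Superficial cells had more of both phosphatase transcripts, Junb and Jund than basal cells. Against basal cells, Dusp5 was higher by 9.51 ± 0.14 (adjusted p = 5.87e-17), Dusp1 by 5.01 ± 0.41 (adjusted p = 0.00257), Jund by 2.34 ± 0.08 (adjusted p = 1.21e-13) and Junb by 1.82 ± 0.09 (adjusted p = 1.96e-10). With class totals these 4 stayed higher, at 8.35, 3.85, 1.18 and 0.67. The count was 4 higher and 1 lower, where 41.3% and 45.2% of all genes were. Jun was the lower gene, at -0.27 ± 0.11 (adjusted p = 0.0472), a call lost without library 2 (-0.10, adjusted p = 0.339) and in 5 other alternatives, with adjusted p from 0.0847 to 0.394. With class totals Jun was at -1.43 (adjusted p = 1.5e-05) and Fos at -1.32 (adjusted p = 0.0459), and 4 genes were higher and 3 lower. Of all 12500 genes tested, 2586 were then higher and 8891 lower. Ier2 was at 0.17 ± 0.09 (adjusted p = 0.0913) with TMM and at -0.99 (adjusted p = 1.06e-07) with class totals. Fos, Fosb and Egr1 missed the threshold at -0.16 ± 0.27, 0.17 ± 0.63 and -0.22 ± 0.61, and without library 3 they were lower by -0.48, -0.44 and -0.73, all past the threshold. Atf3, at 2.79 ± 0.92 (adjusted p = 0.0759), was then higher by 1.58 (adjusted p = 7.22e-10). That value rests on few superficial cells, with 56 UMIs of Atf3 in 6 cells of library 1 and 53 in 20 cells of library 2. With these 4 the count went from 5 to 9 genes, where all genes called went from 10820 of 12500 to 10740 of 12585. For Fosb, the difference was -0.31 and -0.59 in libraries 1 and 2 and 1.62 in library 3.

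Between the wing layer and the surface, 9 of the 10 genes were higher in superficial cells and 0 lower with TMM, where 37.9% and 41.8% of all genes were. Dusp5 was higher by 5.74 ± 0.07 (adjusted p = 2.13e-17), Dusp1 by 4.70 ± 0.14 (adjusted p = 1.77e-07), Jund by 2.11 ± 0.06 (adjusted p = 4.68e-14), Fosb by 1.74 ± 0.19 (adjusted p = 0.000446) and Junb by 1.66 ± 0.06 (adjusted p = 1.61e-12). These 5 and Atf3 stayed higher with class totals. Fos, Ier2 and Jun changed sign with the scaling: 0.42 with TMM and -0.56 with class totals for Fos, 0.37 and -0.61 for Ier2, and 0.67 and -0.31 for Jun. With class totals, 6 of the members were higher and 2 lower, where 1957 and 9663 of all 12818 genes tested were. Egr1 was at -0.21 ± 0.47 (adjusted p = 0.718). Jun lost its call without library 2 (0.71, adjusted p = 0.201), and Atf3, at 3.06 ± 0.40 (adjusted p = 0.00132), lost it without library 1 (3.04, adjusted p = 0.0547).

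Conjunctival cells had less Fos and Jun than basal cells and more of both phosphatase transcripts. Fos was lower than in basal cells by -2.18 ± 0.21 (adjusted p = 0.000861), Jun by -1.36 ± 0.08 (adjusted p = 8.64e-09) and Ier2 by -0.64 ± 0.07 (adjusted p = 1.38e-06). Dusp5 was higher by 4.68 ± 0.16 (adjusted p = 1.43e-11), Atf3 by 1.68 ± 0.23 (adjusted p = 1.74e-05), Dusp1 by 1.42 ± 0.32 (adjusted p = 0.0301) and Jund by 0.54 ± 0.06 (adjusted p = 2.53e-06). The count was 3 lower and 4 higher, where 40.0% and 37.3% of all genes were. Dusp1 lost its call without library 2 (1.62, adjusted p = 0.175). Fosb was at -1.56 ± 0.65 (adjusted p = 0.143), and without library 3 at -2.19 (adjusted p = 1.06e-07). Egr1 was at -0.34 ± 0.30 (adjusted p = 0.385), and without library 3 at -0.66 (adjusted p = 0.000221). Whether limbal and conjunctival cells differ from each other was not tested.

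**Figure D2:**
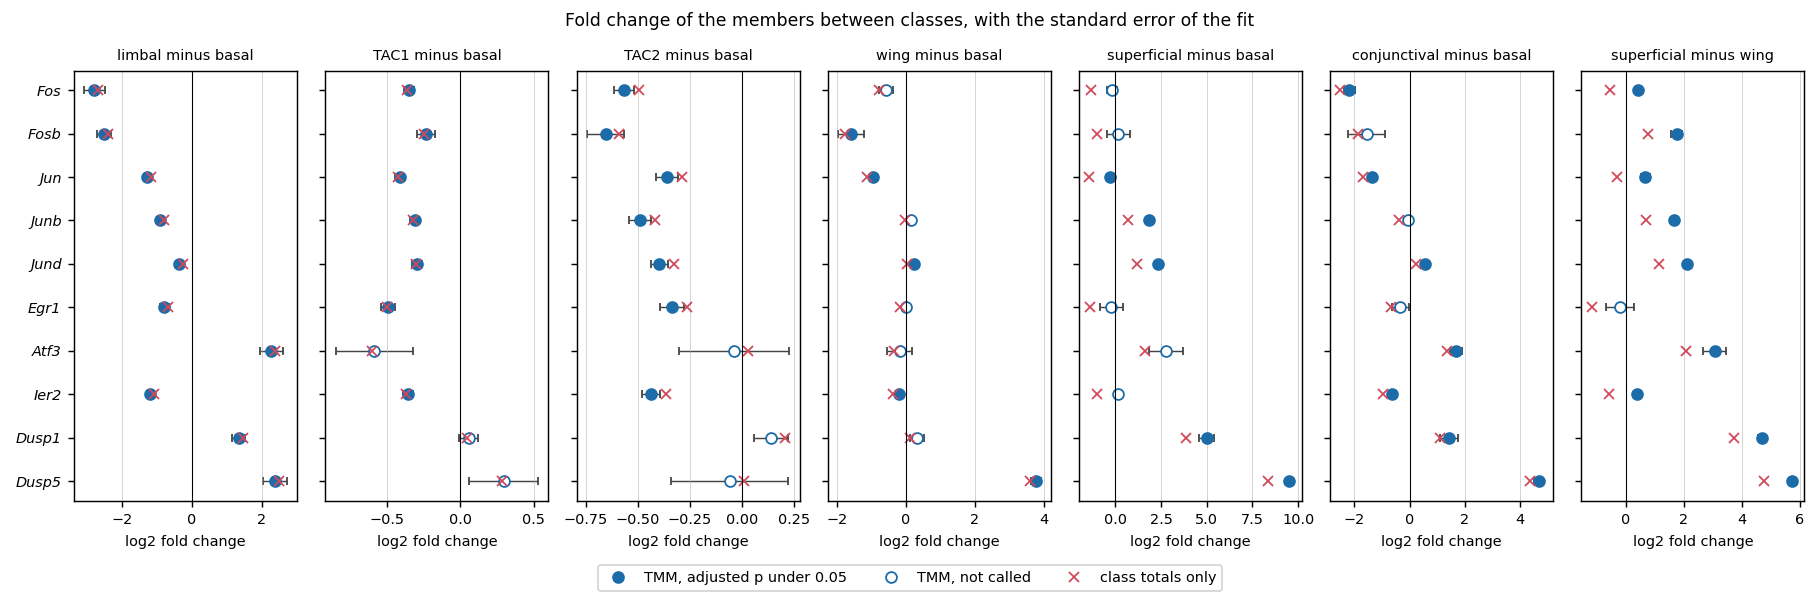
Each panel plots the log2 fold change of the 10 genes in 1 comparison, with circles and SE bars for TMM scaling, filled where the adjusted p is under 0.05, and crosses for class totals. Dusp5 lies right of 0 in limbal, wing, superficial and conjunctival cells, and Fos, Jun and Ier2 lie on opposite sides of 0 under the different scalings in superficial against wing cells.

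The rest of the pathway was followed in 4 lists, read here by their counts beside the shares of all genes tested. With TMM those shares were 21.4% higher and 18.8% lower in limbal, 21.1% and 20.5% in TAC1, 24.9% and 23.7% in TAC2, 38.8% and 38.7% in wing, and 37.3% and 40.0% in conjunctival cells against basal cells. Of 37 other immediate early genes 35 were in the matrix. In TAC1 cells 20 of 29 tested were lower than in basal cells and 1 higher, and in TAC2 cells 18 were lower and 2 higher, with medians of -0.23 and -0.26 against -0.02 for all genes in both. In TAC2 cells, Myc, which drives growth, was lower by -1.18 ± 0.09 (adjusted p = 6.47e-10), while the nuclear receptor gene Nr4a2 was higher by 0.95 ± 0.21. In superficial against basal cells 26 of 30 were higher and 4 lower, where 41.3% and 45.2% of all genes were, and with class totals 21 and 6. Of all 12500 genes tested, 2586 were higher and 8891 lower with class totals. The median of the list was 3.14 with TMM and 1.99 with class totals, against -0.11 and -1.26 for all genes. The list includes Mcl1, which blocks cell death, at 2.96 ± 0.08, and Maff, a small Maf transcription factor, at 5.87 ± 0.10. Against wing cells 26 of 30 were higher and 3 lower, where 37.9% and 41.8% of all genes were, and with class totals 22 and 6. Of all 12818 genes tested there, 1957 were higher and 9663 lower with class totals. Wing cells, set against basal cells, had 18 of 30 higher and 9 lower, and here 2 relatives moved apart: Nr4a2 was at 4.26 ± 0.10 and Nr4a1 at -3.08 ± 0.28. Limbal cells had 12 higher and 11 lower of 30, and conjunctival cells 16 and 9 of 29.

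Of 19 feedback regulators of ERK signalling, the relatives of Dusp1 and Dusp5 among them, 11 of 14 tested were higher and 2 lower in superficial than in wing cells, where 37.9% and 41.8% of all genes were, and 10 and 3 with class totals. Of all 12818 genes tested there, 1957 were higher and 9663 lower with class totals. Against basal cells the list was split, with 7 higher and 8 lower of 15 in superficial cells, 6 and 8 of 14 in wing cells, and 4 and 8 of 14 in conjunctival cells. Of all genes, 41.3% and 45.2% were higher and lower in superficial cells, 38.8% and 38.7% in wing cells and 37.3% and 40.0% in conjunctival cells, so the counts in superficial cells were near the background. Phlda1 stood out in each of those classes, at 7.44 ± 0.11 in superficial, 2.88 ± 0.06 in wing and 4.40 ± 0.07 in conjunctival cells, and at 3.39 ± 0.09 in limbal cells. Errfi1, which encodes an inhibitor of the EGF receptor, was at 5.02 ± 0.31 in superficial cells, and Dusp14, another phosphatase gene, was at 4.64 ± 0.08 against wing cells. Etv4, a transcription factor gene switched on by ERK, was lower in wing cells at -3.16 ± 0.28. Limbal cells had 5 higher and 4 lower of 14, where 21.4% and 18.8% of all genes were, with Dusp10 at 2.85 ± 0.46. In TAC1 cells 6 were lower and 1 higher, and in TAC2 cells 5 and 3, and Etv4 was higher in both, at 0.78 ± 0.17 and 0.98 ± 0.25.

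Of 34 kinases and factors that act before the early genes 32 were in the matrix. Their direction in the upper layers moved with the scaling, as that of all genes did. With class totals, 2586 of all 12500 genes tested were higher and 8891 lower in superficial against basal cells. Against wing cells the counts of all genes were 1957 and 9663 of 12818. In superficial against basal cells 18 of these kinases and factors were higher and 11 lower with TMM, and 9 and 20 with class totals. Map2k1, which encodes the ERK kinase MEK1, was higher under both, at 4.24 ± 0.09 and 3.09, and Rps6ka1, a kinase that ERK activates, lower under both, at -3.48 ± 0.15 and -4.64. Against wing cells 14 were higher and 11 lower with TMM, where 37.9% and 41.8% of all genes were, and 7 and 23 with class totals. Against basal cells, 20 were higher and 8 lower in wing cells with TMM, and 13 and 10 with class totals. Conjunctival cells went from 15 and 8 to 11 and 13, limbal cells from 6 and 4 to 13 and 4, TAC2 cells from 8 and 6 to 10 and 4, and TAC1 cells from 2 and 2 to 2 and 4. With TMM, 41.3% and 45.2% of all genes were higher and lower in superficial against basal cells, 38.8% and 38.7% in wing, 37.3% and 40.0% in conjunctival and 21.4% and 18.8% in limbal cells. With class totals, the counts of all genes were 4008 and 6425 of 13172 in wing, 3367 and 6498 of 12244 in conjunctival and 3269 and 1560 of 12116 in limbal cells.

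The 15 heat shock genes, which respond to stress and to handling, were split in most comparisons. In superficial cells 5 were higher and 8 lower than in basal cells of 14 tested, where 41.3% and 45.2% of all genes were, and 3 and 11 with class totals. Of all 12500 genes tested, 2586 were higher and 8891 lower with class totals. The heat shock genes included Hspe1 at -2.89 ± 0.08 and Hspa8 at -2.56 ± 0.08. Against wing cells 4 were higher and 7 lower, with Hspa1b at -1.90 ± 0.07 and Hsp90aa1 at 2.52 ± 0.07. Hspa1a and Hspa1b, which are induced by stress, summed to 99.6 ± 9.05 CPM in superficial cells (SD, n = 3), 397 ± 42.5 in basal cells, 405 ± 28.9 in limbal cells and 597 ± 42.1 in wing cells. The part of stress in the levels of the members was not tested. Of the heat shock list, limbal cells had 3 higher and 5 lower, TAC1 cells 4 and 4, TAC2 cells 3 and 4, and wing and conjunctival cells 7 and 6 each, of 14 tested in TAC1 and 15 in the others. Of all genes, 21.4% and 18.8% were higher and lower in limbal, 38.8% and 38.7% in wing and 37.3% and 40.0% in conjunctival cells. Median mitochondrial shares were 1.04% in superficial, 1.88% in basal and 2.53% in limbal cells, and without the cells of highest mitochondrial share in each class and library no call listed above for a member was lost.

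**Figure D3:**
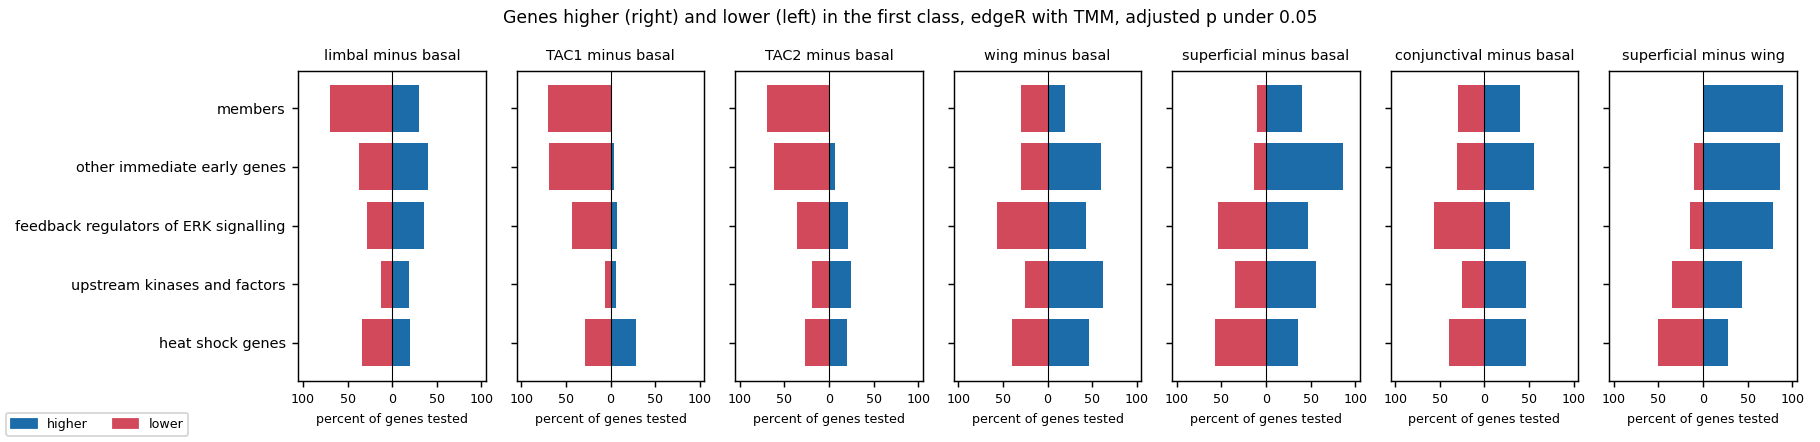
Each panel plots, for 1 comparison, the percentage of tested genes of each list that were higher (right, blue) or lower (left, red) in the class named first, by edgeR with TMM. Other immediate early genes lie mostly to the left in TAC1 and TAC2 (20 and 18 of 29 lower) and mostly to the right in superficial cells (26 of 30 higher against basal and against wing cells).

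Within a class, cells were compared at an equal depth of 2000 UMIs drawn from each, without the 609 cells that had fewer, among them 233 basal, 39 wing, 28 superficial and 10 limbal cells. Dusp5 was then detected in 49.7%, 40.3% and 36.6% of superficial cells, and in 0.21% ± 0.0258 (SD, n = 3) of basal cells, which serve here as the level of background. Without thinning the means were 84.9% and 1.11%, at median depths of 9334 to 21899 UMIs in superficial and 5818 to 13166 in basal cells. Dusp5 was thus spread over the superficial class rather than held by a small subset. Dusp1 was detected in 50%, 28.0% and 25.8% of superficial cells and in 3.75% ± 0.834 of basal cells. For Fos the shares were 28.5%, 31.9% and 21.3% of basal cells, and 5.16% ± 2.38 of limbal cells, the lowest of any class. Unthinned, they were 52.2% ± 9.85 and 18.5% ± 2.24.

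In basal cells the early genes were found in the same cells. Among the 2249 thinned basal cells with a Fos UMI, 62.4%, 65.7% and 60.8% also had a Jun UMI in libraries 1, 2 and 3, against 23.7%, 32.1% and 28.9% of those without. Egr1 was found in 16.6% ± 2.51 of cells with Fos and 4.97% ± 0.557 of cells without, Fosb in 9.19% ± 5.57 and 2.36% ± 0.771, and Ier2 in 44.9% ± 0.909 and 27.3% ± 2.66. Dusp1, which is low in this class as a whole, was in 7.16% ± 1.79 and 2.39% ± 0.357. Each of these shares was higher with Fos than without in 3 of 3 libraries. The stress gene Hspa1a was in 29.0% ± 4.02 of cells with Fos and 26.0% ± 2.87 of cells without, also higher in 3 of 3 libraries. Wing cells showed a like pairing, with Jun in 37.2% ± 2.16 of cells with Fos and 18.8% ± 2.31 of cells without. These are descriptions, since cells of a library are no replicates.

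In superficial cells Dusp1 was found more often in cells with Dusp5 than in cells without it, in 3 of 3 libraries. Of the 2116 thinned superficial cells with a Dusp5 UMI, 63.0%, 41.8% and 37.4% had a Dusp1 UMI, against 37.2%, 18.7% and 19.0% of those without. Jun was in 23.8% ± 4.51 and 17.2% ± 3.32, higher in 3 of 3 libraries. Fos was in 15.2% ± 0.83 and 13.2% ± 2.70, higher in 2 of 3, and Ier2 in 17.5% ± 1.52 and 19.3% ± 1.13, higher in 0 of 3. Hspa1a was in 5.26% ± 0.57 of cells with Dusp5 and 8.92% ± 0.342 of cells without, higher in 0 of 3.

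**Figure D4:**
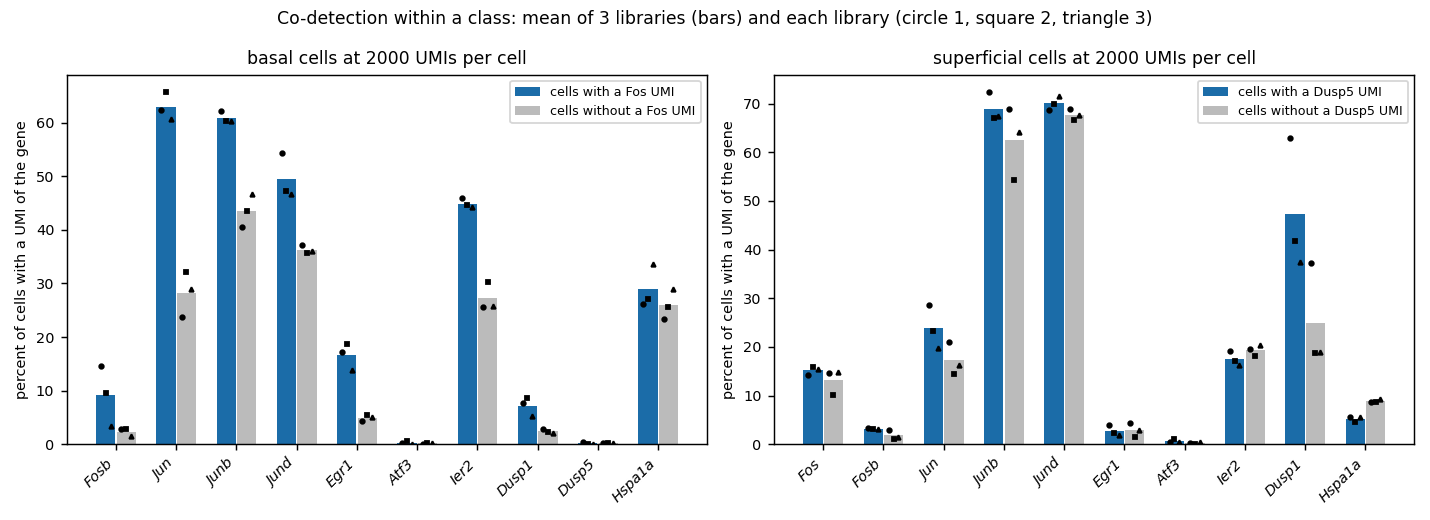
Bars plot the mean percentage, over 3 libraries, of basal cells with a UMI of each gene, split by detection of Fos (left), and of superficial cells split by Dusp5 (right), at 2000 UMIs per cell, with black marks for each library. In basal cells Jun is found in 63.0% of cells with Fos and 28.2% without, and in superficial cells Dusp1 in 47.4% of cells with Dusp5 and 24.95% without.

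A few cells carried very large amounts. Only 28 of 37997 epithelial cells had at least 1% of their UMIs from the 10 genes, a threshold chosen after the values were seen, and 22 of these were superficial, 17 of them from library 3. The 4 highest, all superficial cells of library 3, had 6.54%, 6.42%, 4.36% and 3.90%, where the median superficial cell of library 3 had 0.189%. They held 202, 169, 169 and 254 UMIs of Junb and 92, 51, 44 and 53 of Egr1, with Atf3 at 72, 57, 28 and 38. Their Fos was at 7, 4, 8 and 17 UMIs and their Dusp5 at 5, 4, 2 and 1, of 11244, 8195, 12885 and 19070 UMIs per cell. Relative to depth, Fos was above the class level of library 3, 98.99 CPM, in each of these cells. Dusp5 was above its class level of 308 CPM in the cells with 5 and 4 UMIs and below it in those with 2 and 1. Their mitochondrial share was at most 0.66%, below the superficial median. Of the 6 remaining such cells, 3 were TAC2 cells of library 3 with 824 to 1680 UMIs and mitochondrial shares of 23.4% to 30.4%, 2 were basal and 1 was conjunctival. Among immune cells 16 of 114 reached the threshold.

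These cells decided several values. In library 3 the 17 superficial cells were 0.626% of the 2714 in the class and held 95.0% of its Atf3 UMIs, 47.1% of its Egr1, 29.2% of its Fosb and 17.5% of its Jun, but 4.37% of its Dusp5. In library 1 just 3 superficial cells held 82.1% of the Atf3 UMIs. Without such cells superficial Atf3 stood at 0.347, 1.65 and 0.491 CPM, and its difference from wing cells went from 3.06 to 0.63 (adjusted p = 0.171) and from basal cells from 2.79 to 0.46 ± 0.30. Superficial Egr1 of library 3 went from 33.4 to 17.8 CPM. The call for Jun in superficial against wing cells was also lost (0.57, adjusted p = 0.145). In conjunctival cells of library 3, 1 cell held 56.0% of the Fosb UMIs and 27.6% of the Dusp1 UMIs of the class. Without it, conjunctival against basal Fosb was at -1.97 and Egr1 at -0.45, and Dusp1 lost its call at 1.31 (adjusted p = 0.0914). Such cells were picked by their share of these same genes, so leaving them out tends to lower the genes by construction. The values show how far a level rests on such cells, and no new call is drawn from them. Dusp5, at 9.49 ± 0.14 in superficial against basal cells, and Dusp1, at 4.93 ± 0.41, differed little without these cells.

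**Figure D5:**
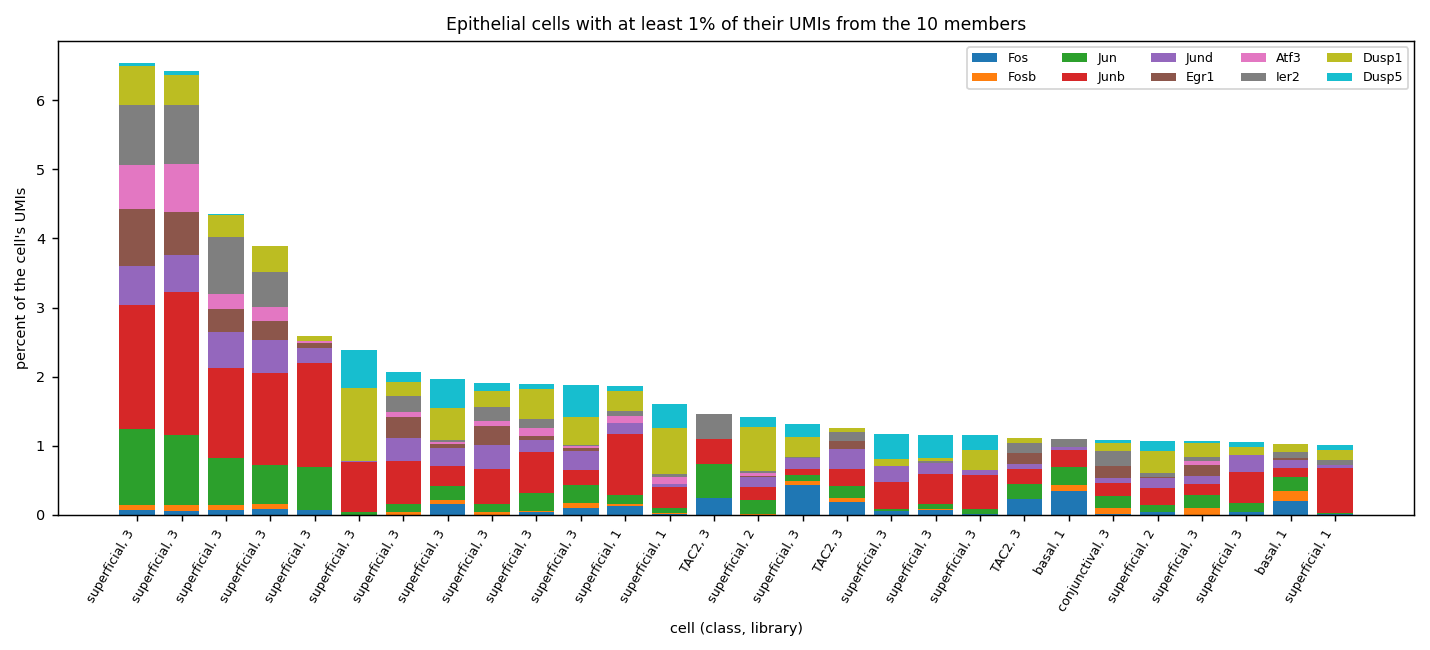
Bars plot, for each of the 28 epithelial cells with at least 1% of UMIs from the 10 genes, the percentage of the cell's UMIs from each gene, stacked, with the class and library of the cell below. The 4 highest, at 6.54% to 3.90%, are superficial cells of library 3.

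Over the 21 sums of 7 epithelial classes and 3 libraries, some members moved together. On the log2(CPM + 1) scale, Pearson's r was 0.90 for Fos and Ier2, 0.84 for Jun and Ier2, 0.79 for Fos and Fosb and 0.78 for Fos and Jun. Among the genes high in superficial cells r was 0.92 for Jund and Dusp5, 0.87 for Dusp1 and Dusp5, 0.84 for Jund and Dusp1 and 0.80 for Junb and Jund, while Jun and Dusp5 had -0.74. These are descriptions over sums that share libraries and class totals, and the totals of superficial cells are dominated by few genes. Among 4606 genes with a mean of at least 20 CPM, the genes most like Dusp5 were Proser2, Lrrfip1 and Epn3, each with r = 0.99. Epn3 stood at 441 CPM in superficial, 71.7 in wing and 21.2 in basal cells on average. The genes most like Dusp1 were Strn3 (r = 0.94), Dusp14 and Arid5b (both 0.93), and those most like Jund were Arap1 (0.98), Myl12a (0.97) and Sdcbp2 (0.96). Junb was nearest to Zfp36 (0.94), itself an early gene, which encodes a protein that marks messenger RNAs for decay. Fos was nearest to Them6 (0.93), Jun to Rock2 (0.93), Ier2 to Nudt22 (0.93), Egr1 to Faf2 (0.85), Atf3 to S100a13 (0.83) and Fosb to Pid1 (0.73).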

How the data were processed

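The values were UMI counts, deposited by the authors as whole numbers without normalisation, and a deposited table gave each cell's library and class label. Per the submitters' processing notes, Cell Ranger 5.0.0, Seurat 4 and the build mm10 were used, with no role given. The sources used here do not give the filters on cells, the handling of doublets or how labels were made, and no doublet caller was run. Library names were matched to libraries 2 and 3 by number and to library 1 by elimination, with 0 columns left over. The genes, lists and alternatives were chosen with earlier results of these data known. Every member is named, and of each list up to 4 genes per comparison could be, 2 by abundance and 2 by the size of a called fold change. All 10 members passed the filter on low counts in each comparison.

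UMIs were summed per class and library (24 sums). Each of the 7 comparisons used 6 sums and the quasi-likelihood F test of edgeR 4.0.16 in R 4.3.3 (filterByExpr, TMM, robust) with Benjamini-Hochberg adjusted p and a threshold of 0.05. Both classes of a comparison came from the same libraries, and so from the same animals, which makes the library a pairing by construction. Each library pools mice, and the block takes out the level of each pool. The p-values therefore set a class difference against its spread over these 3 pools. SE is the absolute log2 fold change divided by the root of F. Alternatives were DESeq2 1.42.0, its size factors, no filter, no library block, each library left out, thinned cells, equal cell numbers, a single fit over 7 classes, leaving out the 10% of cells with the highest mitochondrial share, and, chosen after seeing the data, class totals alone and leaving out cells rich in members. Promoter windows are from RefSeq (GRCm38.p6), where 8 of the 10 genes were searched. Python 3.11.15, numpy 2.4.6, pandas 2.3.3 and scipy 1.17.1 were used.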

Additional observations from a re-analysis of the deposited data

How the results depend on the processing

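Of 899 values of a member under an alternative, 793 kept their direction and side of the threshold, 39 lost and 36 gained a call, 26 changed sign with no call on either side, and 5 were reversed; the cause was not tested. Reversed were Fosb in superficial against basal cells without replicate 3 (-0.44, in a range of -0.44 to 0.55 over the replicates left out) and, with class totals, Ier2 there (-0.99) and Fos (-0.56), Jun (-0.31) and Ier2 (-0.61) in superficial against wing cells. Class totals also reversed Zfp36l1 (-0.11), Map2k2 (-0.25) and Hspb1 (-0.26) in superficial against basal cells and Zfp36l1 (-0.55), Hras (-0.47) and Map2k2 (-0.54) against wing cells. With no replicate block, 2 of 7 members held their call in TAC1 and 4 of 7 in TAC2, and 1298 of 5113 and 2630 of 5927 genes in all were called. In a single fit over 7 classes TAC1 had 3 members and 3215 genes called, and TAC2 4 members and 5346 genes. DESeq2 called 8 members in place of 5 in wing cells, where it called 9173 of 17679 genes in all and edgeR 10221 of 13172. It called 3237 genes in limbal (4876 with edgeR), 2189 in TAC1 and 3300 in TAC2 cells. At 2000 UMIs per cell, which leaves fewer counts, 1804 genes were called in limbal, 2139 in TAC1, 2912 in TAC2 and 6134 (of 9471) in conjunctival cells, and Atf3 and Dusp5 were too low to be tested in limbal cells. Equal cell numbers gave 3243 in limbal cells, and again Atf3 and Dusp5 were too low to be tested there. Leaving out a library gave 10 to 10 members in limbal, 6 to 8 in TAC1, 7 to 8 in TAC2, 6 to 7 in wing, 5 to 9 in superficial and 6 to 9 in conjunctival cells against basal cells, and 8 to 9 in superficial against wing cells. The same ranges for all genes were 3458 to 4293, 3685 to 4669, 4427 to 5834, 9571 to 10218, 10187 to 10740, 8574 to 9180 and 9480 to 9832. The share of superficial cells with Dusp5 was 42.2% at 2000 UMIs, 58.1% at 4000 and 84.9% without thinning, and so rests on depth.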
